A study of Homo sapiens with 12 samples.

Results

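The OAS and MX antiviral genes were examined as 6 members. OAS1, OAS3 and OAS2 lie side by side on chromosome 12, OASL lies farther along the same chromosome, and MX2 and MX1 are neighbors on chromosome 21. The members were taken by name, and all accessible regions that overlap a member gene (GENCODE v44) or the 40 kb on either side of it were included. An accessible region is a run of adjoining 100-bp bins in the deposited table of a cell line. The windows held 31 of 79177 regions (218 of 709366 bins) in the DU-145 table and 32 of 46298 regions (495 of 472994 bins) in the BT-549 table. They also held 14 of the 32671 shared regions, which are runs of bins present in both tables.

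Accessibility was measured by ATAC-seq, in which a transposase tags open chromatin for sequencing, in DU-145 cells, a human castration-resistant prostate cancer (CRPC) line, and in BT-549 cells, a human triple-negative breast cancer (TNBC) line. The cells of all 4 groups carried tet-MUC1shRNA, a short hairpin RNA against MUC1 whose expression doxycycline (DOX) switches on. The groups were DU-145 vehicle, DU-145 DOX, BT-549 vehicle and BT-549 DOX, treated with 0.1% DMSO as vehicle or with DOX for 7 days, with 3 biologically independent replicates of 50000 cells per group and 12 libraries in all. The labels also call the vehicle cells untreated. No control hairpin enters the comparisons, so that MUC1 silencing and exposure to DOX itself cannot be told apart in either line. The promoter region of MUC1 changed by -0.17 on the log2 scale (SE 0.08, adjusted p = 0.0534) in DU-145 and 0.02 (SE 0.10, adjusted p = 0.907) in BT-549 cells, which does not check the silencing, because a hairpin acts on RNA.

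The OAS genes encode oligoadenylate synthetases, which sense double-stranded RNA and make the oligoadenylates that activate the nuclease RNase L. OASL is a related protein without that enzymatic activity that acts with the RNA sensor RIG-I, and MX1 and MX2 are dynamin-like GTPases that block the replication of RNA viruses and of HIV, respectively. Interferons induce these genes through a complex that holds STAT2 and IRF9 and binds the interferon-stimulated response element (ISRE), and the genes are widely used as a readout of interferon signalling in tumor cells.

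Promoter sequences are shown for the members with an entry in the RefSeq table used here (GRCh38.p14), because the changes described next lie over these bases. OAS1, OAS3 and MX1 matched, and OAS2, OASL and MX2 did not. Each runs on the + strand from 250 bases before to 50 bases after the RefSeq start, and capitals mark matches to the core of the ISRE, GAAANNGAAA, searched on both strands.
OAS1, chr12:112906712-112907011: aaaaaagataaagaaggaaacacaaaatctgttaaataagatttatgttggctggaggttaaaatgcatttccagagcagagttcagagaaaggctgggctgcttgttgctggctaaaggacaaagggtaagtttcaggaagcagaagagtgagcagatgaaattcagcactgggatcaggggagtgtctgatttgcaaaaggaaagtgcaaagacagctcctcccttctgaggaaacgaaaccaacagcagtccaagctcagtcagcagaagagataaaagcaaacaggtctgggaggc
OAS3, chr12:112938224-112938523: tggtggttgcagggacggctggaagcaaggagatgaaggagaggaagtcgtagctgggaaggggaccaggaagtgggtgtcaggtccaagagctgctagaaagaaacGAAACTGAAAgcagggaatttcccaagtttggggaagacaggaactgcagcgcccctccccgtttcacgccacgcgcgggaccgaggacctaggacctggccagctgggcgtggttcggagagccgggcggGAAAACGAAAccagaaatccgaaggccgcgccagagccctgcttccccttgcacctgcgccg
MX1, upstream start, chr21:41420308-41420607: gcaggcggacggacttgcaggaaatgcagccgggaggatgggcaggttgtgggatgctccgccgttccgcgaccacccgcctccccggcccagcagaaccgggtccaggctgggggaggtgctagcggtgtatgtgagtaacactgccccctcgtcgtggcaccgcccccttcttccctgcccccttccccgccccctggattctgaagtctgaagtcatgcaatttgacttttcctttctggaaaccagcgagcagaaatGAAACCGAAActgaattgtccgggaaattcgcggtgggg
The OAS3 promoter held the core at positions -143 and -12 from the start, the MX1 promoter held it at position 12 after the start, and the OAS1 window held no match. The OAS1 window held the repeats with a shorter gap (gaaacgaaa), which this search did not cover. A further downstream entry of MX1, not shown, held it on the - strand at position -196. Of all 35116 promoters of this length, 3.57% held the core. The AP-1 sequence TGACTCA, searched likewise, was in none of the 5 member entries and in 4.95% of all promoters. A match is a description of the letters and does not show binding, and the lack of a match does not show that an element is absent.

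The core was also searched in 300 bp around the highest bin of each accessible region. It was found at 6 of the 32 member regions in BT-549 (18.8%, against 4.92% of all regions) and at 7 of 31 in DU-145 (22.6%, against 3.68%). A site with its 10 neighboring bases on either side is shown for each of the 6 BT-549 regions, because these are the matching letters inside regions whose values follow. The OAS3, OASL and MX2 to MX1 regions held 2, 3 and 2 sites, of which 1 each is shown. They were read from GRCh38 on the strand given, with the core in capitals.
OAS3 start, chr12:112938452-112938481, + strand: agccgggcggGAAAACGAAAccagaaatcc
OAS2 start, chr12:112978511-112978540, - strand: ccagagccagGAAACTGAAActgaagtcta
Past OAS2, chr12:113031160-113031189, + strand: gcctgagcagGAAACAGAAAagtcctagaa
OASL upstream, chr12:121060228-121060257, + strand: gctgagaatgGAAACTGAAActgaactttg
MX2 to MX1 interval, chr21:41411475-41411504, + strand: catcacttaaGAAACAGAAAtacttaccca
MX1 upstream start, chr21:41420559-41420588, + strand: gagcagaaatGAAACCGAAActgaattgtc
The OAS3, OAS2 and MX1 sites lie at an annotated start, and the others lie outside the member genes.

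The libraries differed in depth. Bin values summed to between 12370094 and 25232000 in DU-145 libraries, between 9142900 and 13606129 in BT-549 vehicle libraries and between 2502510 and 3267024 in BT-549 DOX libraries. These sums cover accessible bins only. In the BT-549 DOX libraries a bin value of 1 corresponded to 0.306 to 0.40 CPM (the value scaled to a library sum of 1000000) and between 8.84% and 16.9% of bins were under 1, so that a low value in a single bin of these libraries has little precision. Between replicates, the correlation of log2 values over bins was 0.76 to 0.778 in BT-549 DOX cells and 0.90 to 0.936 in the other groups. Epithelial markers had a promoter region for 6 of 6 genes in DU-145 and 2 of 6 in BT-549 cells, and mesenchymal markers for 4 of 6 and 6 of 6. Among leukocyte markers, PTPRC had a region of 0.89 CPM in DU-145 cells, and none of the other 3 had one in either line. KLK3 had no promoter region in the DU-145 table, and ESR1 and PGR had none in the BT-549 table.

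In BT-549 cells, DOX was associated with lower accessibility across all 6 members. Of the 32 regions, 26 closed, 1 opened and 5 were not called with edgeR's quasi-likelihood test at a Benjamini-Hochberg adjusted p under 0.05 over all regions of the table. Of all regions, 18.0% closed and 12.2% opened under the same rule. The median log2 fold change was -1.68 over the member regions and -0.10 over all regions. In 29 of the 32 regions, every DOX library was below every vehicle library. This order was found in 27.0% of all regions. A region entered the table by detection in 3 or more replicates, and 4 of the 32 had a peak in at least 2 DOX libraries (12.5%, against 49.1% of all regions). Most member regions thus entered mainly through vehicle peaks, and the part of this selection in the lower DOX values was not tested. A smaller share of cells with an open region and a lower accessibility per cell cannot be told apart in bulk libraries. When each region was read by its highest bin, 16 closed and none opened, against 10.9% and 9.31% of all regions.

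The regions over the canonical starts of the synthetases closed in BT-549 cells. In the bins over the printed OAS1 promoter, CPM was 9.77, 10.3 and 9.42 in vehicle and 3.09, 2.05 and 2.38 in DOX libraries. It was 22.3, 22.8 and 17.1 against 6.24, 14.6 and 5.11 over the printed OAS3 promoter and 27.6, 29.7 and 28.3 against 3.73, 6.58 and 9.04 over the printed MX1 promoter, and no library of one group reached the other at any of them. The OAS1 start region (chr12:112906601-112907400, 5′UTR and coding exon) had 13.1, 14.4 and 13.4 CPM in vehicle and 4.94, 3.47 and 4.89 CPM in DOX libraries. The groups did not overlap, and the region fell by 1.59 on the log2 scale (SE 0.29, adjusted p = 0.000136). At the OAS3 start (chr12:112937801-112939000, 5′UTR and coding exon), where the letters above lie, CPM was 36.1, 35.1 and 27.0 in vehicle and 13.8, 24.0 and 11.5 in DOX libraries. The second DOX library was closest to the vehicle libraries without reaching them, and the region closed (log2 fold change -1.01, SE 0.22, adjusted p = 0.000766). The region over the OAS2 start (chr12:112976501-112979700) was broad, at 3200 bp, and had 77.6, 72.1 and 85.0 CPM in vehicle and 15.9, 17.8 and 23.8 CPM in DOX libraries. The highest DOX value was far below the lowest vehicle value, and the region was 4.03-fold lower under DOX (log2 fold change -2.01, SE 0.16, adjusted p = 1.77e-10). A small region in OAS3 within 1 kb of another annotated start (chr12:112950701-112951000) had 2.05, 2.44 and 1.62 CPM in vehicle and 1.22, 0 and 0.618 CPM in DOX libraries. It was not called (log2 fold change -1.77, SE 0.68, adjusted p = 0.0502), but was called without the first DOX library (-2.54, adjusted p = 0.0285).

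OASL and the MX genes showed the same direction. The OASL start region (chr12:121038601-121039700) had 19.8, 21 and 18.9 CPM in vehicle and 5.06, 5.41 and 4.09 CPM in DOX libraries, with no overlap (log2 fold change -2.05, SE 0.27, adjusted p = 1.27e-06). MX1, which acts against influenza and other RNA viruses, had start regions at 2 places. The upstream starts (chr21:41419701-41421300), over which the printed MX1 promoter lies, had 54.8, 60.4 and 62.3 CPM in vehicle and 11.3, 14.0 and 15.9 CPM in DOX libraries. All 3 DOX libraries were far below the vehicle libraries, a 4.27-fold lower value (log2 fold change -2.09, SE 0.17, adjusted p = 4.53e-10). The canonical MX1 start (chr21:41425701-41427700, 5′UTR) had 28.9, 37.2 and 31.5 CPM in vehicle and 11.8, 10.4 and 16.0 CPM in DOX libraries. This region also closed without overlap, by less (log2 fold change -1.33, SE 0.21, adjusted p = 1.58e-05). At the MX2 start (chr21:41361801-41362700, exon and 5′UTR), CPM was 6.72, 7.80 and 7.48 in vehicle and 1.55, 4.96 and 2.34 in DOX libraries. The values were low and variable under DOX, and the decrease (log2 fold change -1.33, SE 0.38, adjusted p = 0.00871) was not called by the highest bin of the region (-1.35, adjusted p = 0.125). A region just before it (chr21:41360101-41361200) fell from 12.2, 18.5 and 14.7 CPM to 3.11, 2.72 and 7.45 CPM (log2 fold change -1.71, SE 0.32, adjusted p = 0.000185). The 3 further regions within 1 kb of another annotated MX1 or MX2 start fell by 0.92, 1.32 and 2.11 on the log2 scale. The middle value, in an MX1 intron (chr21:41449501-41450300), was not called without the third vehicle library (-1.26, adjusted p = 0.0529). Nor was it called with DESeq2 (-1.22, adjusted p = 0.0501) or by its highest bin (-1.14, adjusted p = 0.307). With the replicate number as a block and GC offsets it was not called either (-1.22, adjusted p = 0.0516). The least of these, in an MX2 intron (chr21:41369101-41370100, adjusted p = 0.0455), lost its call when any library but the first DOX library was left out, with log2 fold changes of -1.07 to -0.67. It also lost its call with TMM factors, DESeq2, the replicate number as a block and the highest bin (-0.91 to -0.82).

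**Figure D1:**
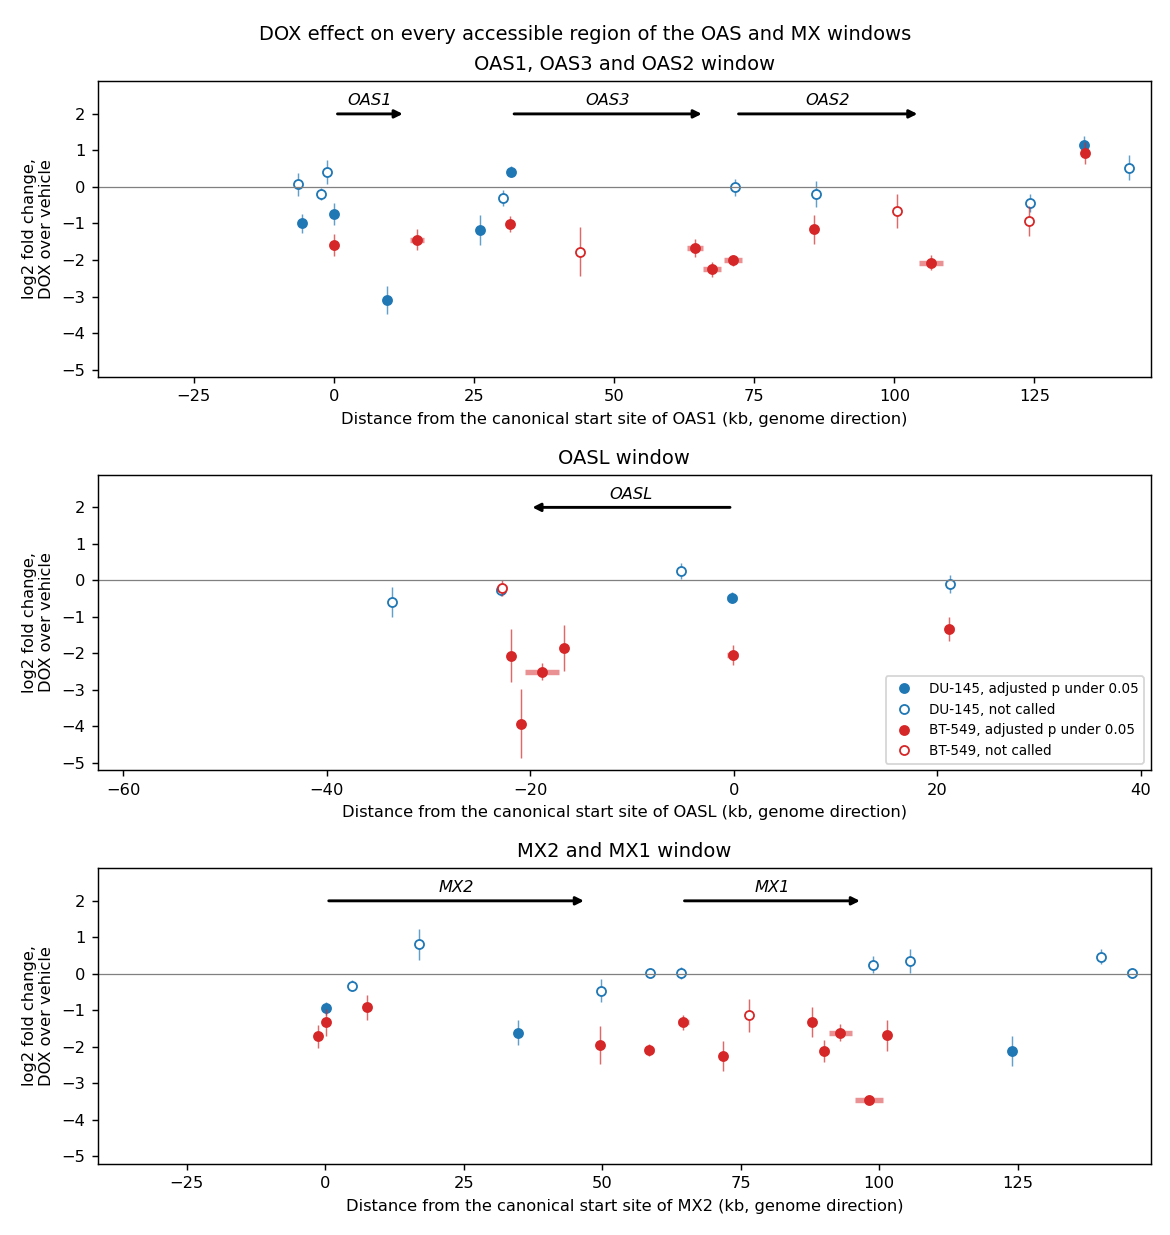
log2 fold change of DOX over vehicle (y axis) for every accessible region of the 3 windows against the distance in kb from a canonical start site (x axis), with DU-145 in blue and BT-549 in red. Points are region centers, thick bars the width of a region, thin bars the SE, filled points calls at an adjusted p under 0.05, and arrows the canonical transcripts; 26 of the 32 BT-549 regions and 8 of the 31 DU-145 regions are filled below 0, and the lowest point of the OASL window is a fitted value of the region whose DOX libraries were at or near 0.

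The 4 widest BT-549 regions lay at or near the 3′ ends of genes. An end here is that of the canonical transcript, and the annotated OAS1, OAS3, OASL and MX1 genes reach farther. Among the 14 BT-549 regions within 5 kb of a canonical 3′ end and away from any member start, 12 closed, none opened, and the median log2 fold change was -1.90. The region over the end of MX1 (chr21:41457601-41462800, coding exon, 3′UTR and flank) was 5200 bp wide and had 192, 213 and 197 CPM in vehicle and 22.1, 15.7 and 17.9 CPM in DOX libraries. It was 128th of all 46298 regions by vehicle CPM, and 38 of its 52 bins were closing DARs, which are differentially accessible single bins. Its value was 10.9-fold lower under DOX (log2 fold change -3.44, SE 0.13, adjusted p = 9.27e-17), which placed it 87th among all regions by the size of the decrease. The signal lay past the canonical transcript: the 36 bins after the canonical end averaged 4.96 CPM in vehicle cells, against 1.39 CPM in the 16 bins before it, and the highest bin was 838 bp past the end.

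Regions over the ends of OAS3, OAS2 and OASL also closed, from lower values. At the end of OAS3 (chr12:112972901-112976100), CPM was 44.6, 56.7 and 54.2 in vehicle and 11.3, 5.94 and 14.3 in DOX libraries (log2 fold change -2.26, SE 0.21, adjusted p = 4.55e-09). At the end of OAS2 (chr12:113011301-113015600), it was 55.4, 59.3 and 50.6 in vehicle and 9.42, 9.72 and 19.4 in DOX libraries (log2 fold change -2.07, SE 0.20, adjusted p = 9.63e-09). In both, the DOX libraries were well separated from the vehicle libraries, and the highest bin lay 800 bp and 728 bp past the end. The OASL end region (chr12:121018701-121022100) had 42.6, 47.8 and 41.1 CPM in vehicle and 12.5, 8.09 and 3.59 CPM in DOX libraries (log2 fold change -2.50, SE 0.24, adjusted p = 1.02e-08). Here the highest bin was at -1440 bp relative to the end, inside the gene. Regions over the last OAS3 exon (chr12:112970001-112972800), before the MX1 end (chr21:41453001-41457100) and past the OAS1 end (chr12:112920601-112923100) fell by 1.67, 1.61 and 1.44. The last of these was not called when the region was read by its highest bin (log2 fold change -1.25, adjusted p = 0.117). No region overlapped the canonical end of OAS1 or of MX2, and the nearest region to the MX2 end was 700 bp wide. Among all 319 regions of the BT-549 table that are 3 kb or wider and within 1 kb of a protein-coding 3′ end, 44.2% closed and the median log2 fold change was -0.19.

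**Figure D2:**
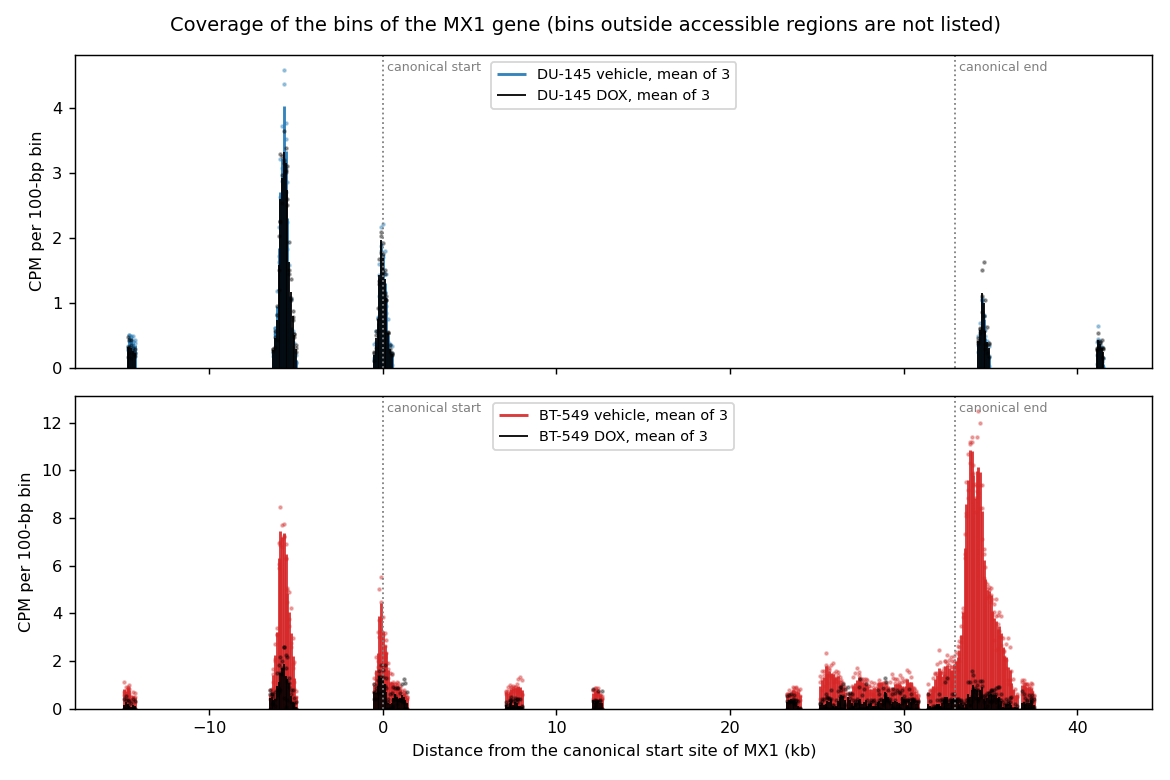
CPM of each 100-bp bin (y axis) against the distance in kb from the canonical start of MX1 (x axis) in DU-145 (top) and BT-549 (bottom), with bars for the mean of 3 libraries and dots for single libraries. BT-549 vehicle coverage peaks 838 bp past the MX1 end, where the DOX bars are low, and DU-145 coverage has no such broad block.

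The remaining regions were gene-body and flanking sites. In BT-549 cells, 2 of 3 gene-body regions closed, including an MX1 intron (chr21:41433301-41434300) that fell by 2.26 on the log2 scale and was not called by its highest bin (-1.19, adjusted p = 0.276). A region 611 bp past the OASL end (chr12:121018101-121018500) closed from 2.27, 1.89 and 2.01 CPM to 0, 0 and 0.223 CPM, and no fold is given because the DOX values were at the limit of depth. Outside the genes, a region upstream of OASL next to the OASL2P pseudogene (chr12:121060001-121060900), which holds the printed OASL site, fell from 12, 18.9 and 10.3 CPM to 5.69, 3.26 and 7.17 CPM (log2 fold change -1.33, SE 0.32, adjusted p = 0.00218). The 1 region that opened lay 28878 bp past the OAS2 end (chr12:113040601-113041200), with 6.10, 4.21 and 8.61 CPM in vehicle and 13.7, 10.7 and 11.7 CPM in DOX libraries (log2 fold change 0.94, SE 0.30, adjusted p = 0.0174). It was not called without the first DOX library or without the first or second vehicle library. The region between MX2 and MX1 (chr21:41411301-41412000), which holds another printed site, had 4.66, 4.03 and 5.40 CPM in vehicle and 1.54, 0 and 1.70 CPM in DOX libraries (log2 fold change -1.95, SE 0.52, adjusted p = 0.00546). The 4 remaining closed regions fell by 1.16 to 2.06 on the log2 scale. Of the regions not called, an OAS2 intron (chr12:113007201-113007600), the region that lies 19078 bp past OAS2 and holds a printed site (chr12:113030801-113031300) and an MX1 intron (chr21:41438301-41438900) had log2 fold changes of -0.65, -0.93 and -1.13.

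In DU-145 cells the member regions moved in both directions. Of the 31 regions, 8 closed and 2 opened, against 17.4% closed and 37.1% opened over the whole DU-145 table. The median log2 fold change was -0.19 over the members and 0.24 over all regions. With TMM factors in place of library sums, 12 member regions closed and 1 opened, against 25.5% closed and 30.0% opened over all regions. The median was then 0.048 over all regions and -0.38 over the members. The members thus lay below the table by about the same amount. In 11 regions the highest DOX library was below the lowest vehicle library, and in 3 the order was the opposite. Among all regions these orders were found in 19.4% and 40.1% of regions.

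Start sites in DU-145 cells gave a mixed picture. The OAS1 start (chr12:112906801-112907200) had 2.33, 2.49 and 1.57 CPM in vehicle and 1.34, 1.25 and 1.22 CPM in DOX libraries (log2 fold change -0.75, SE 0.30, adjusted p = 0.0344). This small region lost its call when any library but the third vehicle library was left out, with log2 fold changes of -0.78 to -0.59. At OAS3 (chr12:112937901-112939100), CPM was 15.3, 14.3 and 10.6 in vehicle and 18.2, 19.2 and 16.7 in DOX libraries, an opening of 0.42 (SE 0.14, adjusted p = 0.00973) that was not called with TMM factors (0.23, adjusted p = 0.168) or without the third vehicle library (0.29, adjusted p = 0.0858). The OAS2 start (chr12:112978101-112978900) had 2.42, 4.09 and 4.82 CPM in vehicle and 3.14, 4.03 and 4.08 CPM in DOX libraries, with overlapping groups (log2 fold change -0.01, SE 0.24, adjusted p = 0.976). OASL (chr12:121038601-121039600) closed from 13.5, 14.5 and 14.5 CPM to 8.36, 10.9 and 11 CPM (log2 fold change -0.48, SE 0.15, adjusted p = 0.00562). With GC offsets it was not called (-0.23, adjusted p = 0.18). The MX2 start (chr21:41361801-41362700) closed without overlap, from 9.38, 8.16 and 7.59 CPM to 4.44, 4.67 and 3.95 CPM, a 1.92-fold lower value (log2 fold change -0.94, SE 0.18, adjusted p = 4.79e-05). Neither MX1 start was called: the upstream region (chr21:41419901-41421300) had 23.3, 23.8 and 17.5 CPM in vehicle and 24.8, 22.0 and 19.6 CPM in DOX libraries (log2 fold change 0.03, SE 0.12, adjusted p = 0.875), and the canonical start (chr21:41425701-41426800) had 9.35, 11.7 and 8.08 CPM against 10.1, 10.4 and 9.32 CPM (0.02, SE 0.16, adjusted p = 0.927).

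Of the 4 further regions within 1 kb of a member start, 1 closed and 3 were not called. The region that closed lies over a coding exon of OAS1, 750 bp from another annotated OAS1 start (chr12:112916301-112916700), and is not listed in the BT-549 table. It fell from 3.76, 2.80 and 3.70 CPM to 0.416, 0.132 and 0.672 CPM. This was the member region with the lowest log2 fold change in DU-145 cells (-3.10, SE 0.38, adjusted p = 1.57e-08), and it held both closing DARs of the line in the windows. Before the canonical OAS1 start, chr12:112904201-112905300 had 10.0, 12.2 and 12.5 CPM in vehicle and 10.5, 11.8 and 7.80 CPM in DOX libraries (log2 fold change -0.20), and chr12:112905601-112906000 had 1.17, 1.95 and 1.32 CPM against 1.23, 2.89 and 1.80 CPM (0.41). Before OAS3, chr12:112936801-112937500 had 4.70, 4.12 and 3.79 CPM against 3.0, 3.49 and 3.73 CPM (-0.29). The groups overlapped at both regions before OAS1 and not at the region before OAS3. The first region before OAS1 was called with TMM factors (-0.39, adjusted p = 0.0384).

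Other DU-145 regions lay in introns and in the flanks of the genes. An MX2 intron (chr21:41396501-41397000) fell by 1.61. Regions outside the canonical member transcripts, in TMPRSS2 (chr21:41485901-41486300), before OAS1 (chr12:112901101-112901600) and between the canonical OAS1 end and the OAS3 start (chr12:112932901-112933300), fell by 2.11, 1.0 and 1.18. The last of these was not called without the second DOX library (adjusted p = 0.0566) or the third vehicle library (adjusted p = 0.144). A further MX2 intron region (chr21:41366401-41367200), with 13.0, 12.4 and 13.7 CPM in vehicle and 8.83, 9.91 and 12.2 CPM in DOX libraries, had a log2 fold change of -0.33 (adjusted p = 0.0594), which was called with TMM factors (-0.52, adjusted p = 0.0031) and without the third DOX library (-0.47, adjusted p = 0.0221). The region past OAS2 that opened in BT-549 cells also opened in DU-145 cells (chr12:113040601-113041100), from 2.76, 1.78 and 2.34 CPM to 4.79, 4.87 and 5.34 CPM (log2 fold change 1.16, SE 0.23, adjusted p = 7.03e-05). No DU-145 region lay over a canonical 3′ end of a member. Past the MX1 end (chr21:41460501-41461200), CPM was 3.37, 3.59 and 4.05 in vehicle and 6.16, 3.65 and 3.43 in DOX libraries, with overlapping groups (log2 fold change 0.25, SE 0.23, adjusted p = 0.386). This and the other DU-145 regions not named above were not called, with log2 fold changes of -0.58 to 0.81.

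Among single bins, the change in BT-549 cells lay over the same places. DARs were bins with a 2-fold or larger change whose adjusted p was below 1e-05 (DU-145) or 0.01 (BT-549). In BT-549 cells 127 of 495 member bins (25.7%) were closing DARs and none was an opening DAR, against 2.87% closing and 2.07% opening among all bins. The 127 were 82 of the 296 bins in regions near a 3′ end, 27 of the 103 at canonical starts and 18 of the 52 at other starts. The largest count thus came from the place with the most bins. Without the first or the third DOX library, 79 and 73 closing member bins were called, against 1.59% and 1.35% of all bins. In DU-145 cells 2 of 218 member bins (0.917%) were closing and none was opening, against 1.59% and 5.0% of all bins. None was opening with edgeR or DESeq2, while 3 BT-549 and 16 DU-145 member bins were higher under DOX at an unadjusted p under 0.05 with edgeR. DESeq2 called 40 closing member bins in BT-549 and 1 in DU-145, against 0.718% and 0.907% of all bins. In BT-549 it gave an adjusted p to 262041 bins, against 472929 with edgeR.

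The vehicle cells of the lines differed at these genes before any DOX. Over the 14 shared regions, 10 were higher in BT-549 vehicle cells and none was higher in DU-145 vehicle cells, with a median log2 difference of 1.22. At an unadjusted p under 0.05, edgeR also gave 0 regions higher in DU-145. DESeq2 called 1 member region higher in DU-145, the MX2 start, against 35.2% of all shared regions. Of all shared regions, 48.1% were higher in BT-549 and 27.0% in DU-145, and the median was 0.33. With TMM factors these medians were 0.95 and 0.062. Under this scaling 9 member regions were higher and 1 lower in BT-549, against 37.1% and 35.6% of all shared regions. Cell line, tissue of origin and table cannot be told apart in this comparison.

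The difference was widest at OAS2 and past MX1. The region past the MX1 end (chr21:41460501-41461200) had 56.9, 68.7 and 57.9 CPM in BT-549 vehicle and 4.49, 4.84 and 5.47 CPM in DU-145 vehicle libraries, 12.4-fold higher in BT-549 (log2 difference 3.64, SE 0.15, adjusted p = 5.11e-21). The OAS2 start (chr12:112978101-112978900) had 60.8, 54.2 and 59.0 CPM in BT-549 and 3.23, 5.51 and 6.51 CPM in DU-145 vehicle libraries, an 11.3-fold difference (3.50, SE 0.16, adjusted p = 1.56e-19). The groups were far apart at both places. At the starts of OAS1, OAS3 and MX1 (upstream and canonical) the log2 differences were 2.09, 1.16, 1.28 and 1.24, with no overlap between the lines. At the OASL start the difference was 0.32 (SE 0.14, adjusted p = 0.0403), with 23.5, 25.1 and 22.6 CPM in BT-549 and 18.1, 19.5 and 19.5 CPM in DU-145 vehicle libraries. MX2 stood apart in direction: its start had 8.22, 9.51 and 9.20 CPM in BT-549 and 12.5, 11 and 10.2 CPM in DU-145 vehicle libraries, all DU-145 values being higher, and was not called (-0.33, SE 0.18, adjusted p = 0.0965).

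**Figure D3:**
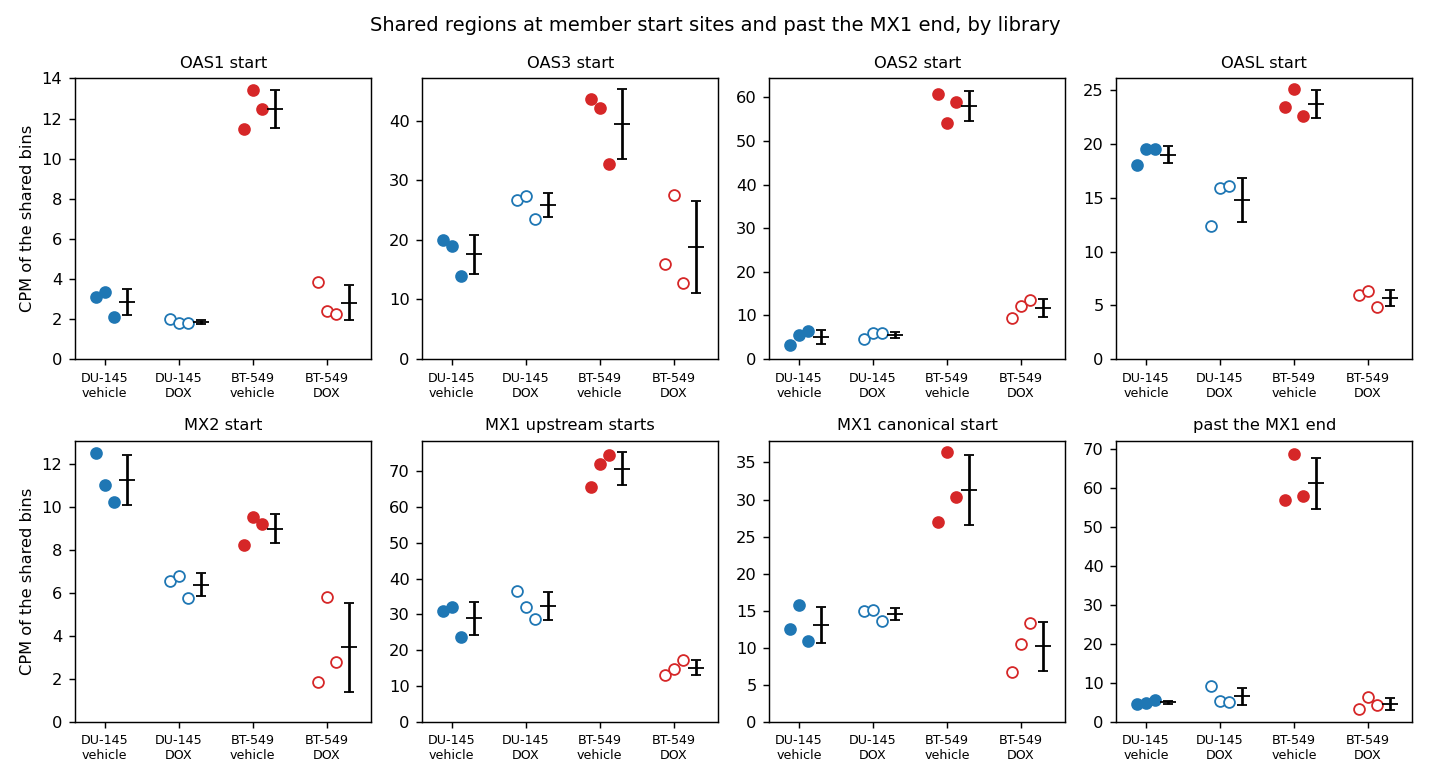
CPM over the bins common to both lines (y axis, from 0) in each of the 12 libraries for 8 shared regions, by group (x axis), with filled points for vehicle, open points for DOX, and the mean ± SD of 3 libraries in black. BT-549 vehicle libraries are highest in each panel but that of the MX2 start, and past the MX1 end they lie between 56.9 and 68.7 CPM with all other libraries under 10.

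Per kb, the order of the members differed between the lines. In BT-549 vehicle cells the mean CPM per kb was 87.3 ± 9.33 past the MX1 end, 72.5 ± 4.23 at the OAS2 start, 50.6 ± 3.28 at the upstream MX1 starts, 35.9 ± 5.37 at OAS3, 31.2 ± 2.45 at OAS1, 28.4 ± 4.31 at the canonical MX1 start, 23.7 ± 1.3 at OASL and 9.98 ± 0.747 at MX2 (SD, n = 3). The library ranges of OAS3 and OAS1, of OAS1 and the canonical MX1 start, and of that start and OASL overlapped, and the other neighbors in this order did not. In DU-145 vehicle cells the order was 20.7 ± 3.28 at the upstream MX1 starts, 19.0 ± 0.832 at OASL, 16.0 ± 2.97 at OAS3, 12.5 ± 1.28 at MX2, 11.8 ± 2.24 at the canonical MX1 start, 7.14 ± 1.64 at OAS1, 7.05 ± 0.706 past the MX1 end and 6.35 ± 2.1 at OAS2. Each neighboring pair of this order overlapped in its library ranges except the canonical MX1 start and OAS1. Under DOX, the BT-549 values were 17.1 ± 7.07 at OAS3, 14.6 ± 2.69 at OAS2, 10.8 ± 1.54 at the upstream MX1 starts and 3.85 ± 2.29 at MX2.

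The difference in DOX effect between DU-145 and BT-549 cells was tested on shared regions with an interaction term over all 12 libraries. Of the 14 member regions, 9 had a more negative DOX effect in BT-549 cells and none a more positive one, with a median difference of -1.61. The count of more positive effects was 0 with edgeR also at an unadjusted p under 0.05, and 0 with DESeq2. Among all shared regions, 27.3% were lower and 11.3% higher in BT-549, with a median of -0.24. The difference was -4.08 past the MX1 end (SE 0.35, adjusted p = 3.34e-12), -2.42 at the OAS2 start (SE 0.30, adjusted p = 1.96e-08) and -2.37 at the upstream MX1 starts (SE 0.22, adjusted p = 3.69e-11). At the OAS3, OASL and canonical MX1 starts it was -1.65, -1.71 and -1.73. The MX2 start, which closed in both lines, had a difference of -0.57 (SE 0.41) that was not called (adjusted p = 0.275). With TMM factors and with DESeq2, 8 of the 14 regions were called, all lower in BT-549. Of all shared regions, 21.1% were lower and 19.2% higher with TMM factors, and 19.3% and 23.2% with DESeq2. The vehicle libraries enter both this comparison and that between the lines, so that they are not independent of each other.

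Summed over whole windows, the lines showed the same contrast. In BT-549 cells the MX1 window held 361, 402 and 373 CPM in vehicle and 77.6, 57.2 and 77.5 CPM in DOX libraries, a ratio of 0.187. The OAS1, OAS3, OAS2, OASL and MX2 windows had ratios of 0.380, 0.294, 0.327, 0.328 and 0.307, all without overlap. The exact two-sided permutation test gave p = 0.1 for each, the smallest value that 3 against 3 libraries allow. Windows of neighbors share bins, and over the joint OAS1-OAS3-OAS2 and MX2-MX1 loci the ratios were 0.332 and 0.201. In DU-145 cells the joint OAS locus held 55.5, 57.2 and 53.0 CPM in vehicle and 53.0, 56.2 and 52.1 CPM in DOX libraries (exact p = 0.4), and the MX locus had a ratio of 0.931 (exact p = 0.2). The OASL window of this line had a ratio of 0.836 and the MX2 window 0.868, both without overlap (exact p = 0.1). The OAS2 window was 1.27 times higher under DOX (exact p = 0.1), and it was below vehicle with flanks of 20 kb (log2 ratio -0.19, exact p = 0.4). The wider window takes in both the region past OAS2 and part of the OAS3 start, each of which opened.

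The authors' peaks, called in each library, gave a view without a count model. All 32 BT-549 member regions had a peak in at least 2 vehicle libraries, against 99.6% of all regions of the table. The table holds only regions detected in 3 or more replicates, so that the vehicle count was largely set by how it was made. In at least 2 DOX libraries, 4 member regions had a peak (12.5%, against 49.1% of all regions of the table). The shallow DOX libraries have fewer peaks throughout, so that depth and the change cannot be told apart in this count. Within 1 kb of the canonical start, OAS2 had a peak in 3 of 3 BT-549 vehicle libraries, with fold enrichments over local background of 58.9, 56.9 and 40.8, and in 2 DOX libraries, at 4.62 and 5.17. OAS1, OASL and MX2 had a peak in each vehicle library and in no DOX library of BT-549. In DU-145 cells each of the 6 members had a peak within 1 kb of its canonical start in all 6 libraries. For OAS1 the region over the start (chr12:112906801-112907200) had a peak in 3 vehicle and 2 DOX libraries. The region before it (chr12:112905601-112906000) had one in 1 vehicle and 2 DOX libraries. For OASL the fold enrichments were 27.5, 31.3 and 25.1 in vehicle and 17.5, 23.4 and 22.7 in DOX libraries. In each group of this line 26 of 31 regions (83.9%) had a peak in at least 2 libraries, against 78.8% of all regions in vehicle and 94.4% in DOX cells.

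Promoters of 47 other genes of interferon signalling and response were read from a list made from general knowledge of the pathway. The counts are of genes, so that the region shared by RSAD2 and CMPK2 and that shared by PARP9 and DTX3L enter once for each gene. In BT-549 cells 46 had a promoter region, of which 31 closed, 1 opened and 14 were not called, against 10.2% closed and 16.0% opened among all regions within 1 kb of a start. The median log2 fold change was -0.72, against 0.05 over all regions near a start. The 4 with the smallest p were IFIT2 (-3.84, adjusted p = 9.51e-15) and IFIT3 (-1.61, adjusted p = 4.97e-09), which bind viral RNA, IFI44L (-2.46, adjusted p = 2.03e-09) and IFI44 (-1.65, adjusted p = 7.03e-08). The IFIT2 region of BT-549 (chr10:89306101-89311400) reaches past the annotated 3′ end of the gene and is not that of DU-145 (chr10:89301301-89302500). The IFNAR2, JAK1, ISG15 and IRF3 regions of the lines do not overlap either, so that values of these genes are not of the same bases in both lines. Regions of other genes can differ in width between the lines. The promoter that opened was that of the receptor subunit gene IFNAR1 (0.61, adjusted p = 0.00392). In DU-145 cells 39 had a promoter region, of which 20 closed, 2 opened and 17 were not called, against 28.6% closed and 18.9% opened among all regions near a start. The median was -0.28, against -0.07. The 4 with the smallest p were IRF9, a DNA-binding partner of STAT2 (-1.0, adjusted p = 9.13e-08), the receptor gene IFNAR2 (-0.49, adjusted p = 1.6e-06), the ubiquitin ligase gene HERC6 (-0.61, adjusted p = 4.03e-06) and STAT2 (-0.44, adjusted p = 1.14e-05). IFIT2 and IFIT3 were the 2 promoters that opened in this line, by 0.54 and 0.36.

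**Figure D4:**
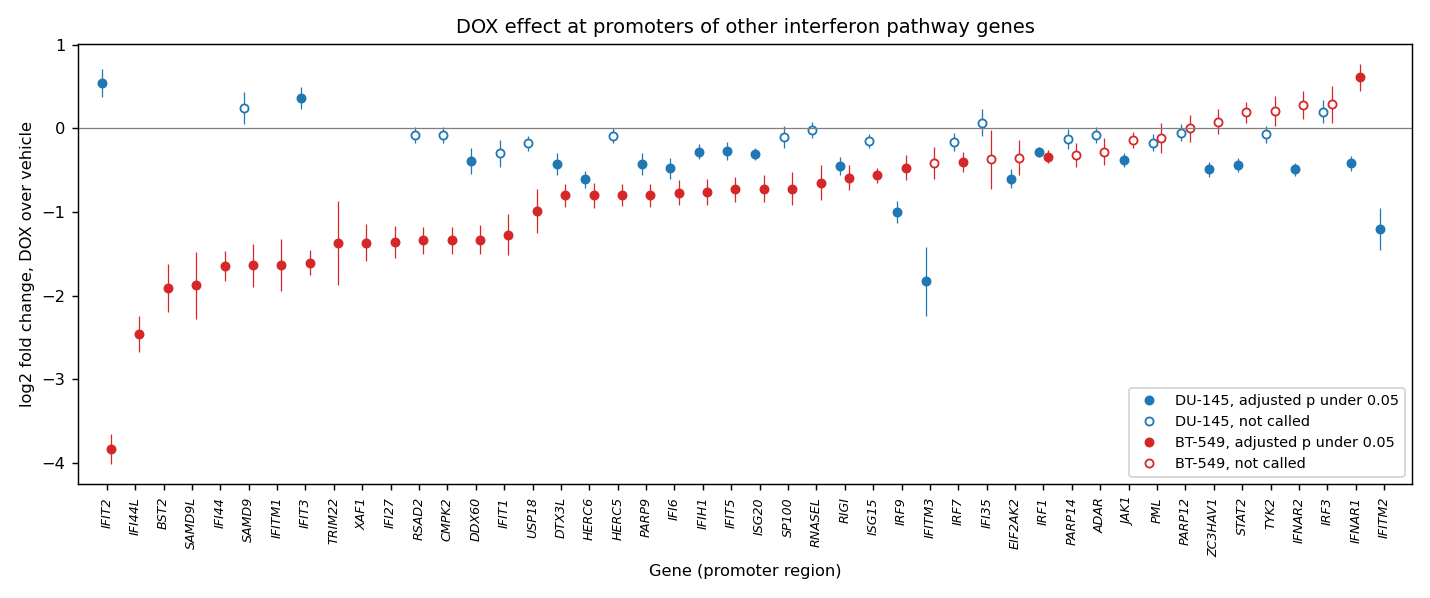
log2 fold change of DOX over vehicle (y axis) at the promoter region of the listed interferon genes but 1 that is not reported here (x axis, ordered by the BT-549 value), with bars for the SE, BT-549 in red, DU-145 in blue and filled points for an adjusted p under 0.05. IFIT2 is lowest in BT-549 at -3.84, and its DU-145 point above 0 is of another region. The points of IFNAR2, JAK1, ISG15 and IRF3 are also of different regions in the lines.

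Promoters whose pattern over the 12 libraries was most like that of a member were found by Pearson correlation of log2(CPM + 1) over 11204 genes. For OAS2 these were ISG15, a ubiquitin-like interferon-induced protein (0.977), CCDC80 (0.973) and PLD1 (0.973). For OAS1 they were PHGDH (0.971), CFB (0.967) and TRIM45 (0.965), and for OAS3 CCND3 (0.963), GBP3 (0.93) and ZNF354B (0.896). OASL was most like SCCPDH (0.964), RHOQ and ERI2, the canonical MX1 start most like CHID1 (0.962), RAET1E and SP110, and MX2 most like PROCA1 (0.955), WDR55 and VPS45. The 12 points fall into 4 groups and share library depth, so that these values describe which promoters follow the same order of groups.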

How the data were processed

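The ATAC-seq values of 4 groups (2 lines, vehicle or DOX, 3 libraries per group) were analyzed as deposited. According to the methods and processing notes, the authors aligned reads with BWA to GRCh38, removed duplicates with Picard, called peaks in each replicate with MACS2 2.2.7.1 at q 0.05, merged the regions detected in 3 or more replicates per line, and split them into 100-bp bins. The deposited bin values are estimated counts, the mean fragment coverage per bin, without depth scaling. The deposited peak files give the fold enrichment (a ratio) and the significance of each peak as -log10 p-value and -log10 q-value. All bins lay within the chromosome lengths of hg38.

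Adjoining bins were summed into regions and rounded. Library sums were used for scaling without TMM factors, and edgeR 4.0.16 (R 4.3.3, robust quasi-likelihood test, no covariates) was fitted to each whole table, with Benjamini-Hochberg adjustment over all regions or bins and a threshold of 0.05. Bins with a total under 10 were left out of the bin test. Lines were compared over shared regions with the library sums of shared bins. The SE of a log2 fold change was derived from the F statistic. The vehicle libraries enter every comparison. Window sums were compared by exact two-sided permutation tests. The fits were tested on simulated data. The spread between replicates is the measure of error, and depth sets the precision in the BT-549 DOX libraries, whose sums were 2580687, 2502510 and 3267024.

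Regions named were those within 1 kb of a member start, up to 8 further regions per line by adjusted p, the 3 per line with the highest vehicle CPM per kb, and up to 6 shared regions by the p of each line comparison, with 4 pathway genes per line and 3 most similar promoters per member. Further regions named here were chosen after their values were seen. Some items that were tested are not reported here. The 47-gene pathway list and the cell type markers were taken from general knowledge. The members and lists were chosen with earlier results of these data known. Replicate numbers did not pair the libraries (correlations of same-numbered deviations up to 0.059). Alternatives were TMM factors, DESeq2 1.42.0, other filters, the highest bin, GC offsets, a replicate block, 20 kb flanks, peak thresholds and leaving out each library.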

Additional observations from a re-analysis of the deposited data

Results flagged for a closer look

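Of the 14 shared regions of the OAS and MX windows, 9 had a DOX effect that differed between BT-549 and DU-145 cells. The test was that of the interaction over all 12 libraries (edgeR, adjusted p under 0.05). All 9 were lower in BT-549, against 27.3% of all shared regions lower and 11.3% higher. The differences, BT-549 minus DU-145 on the log2 scale, were -1.58 at the OAS1 start, -1.65 at the OAS3 start, -2.42 at the OAS2 start, -1.71 at the OASL start and -1.37 at the region upstream of OASL next to OASL2P. On chromosome 21 they were -1.83 between MX2 and MX1, -2.37 at the upstream MX1 starts, -1.73 at the canonical MX1 start and -4.08 past the MX1 end. The BT-549 DOX libraries, which enter each of these differences, were also the shallowest of the 12, and the part of depth in them was not tested.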

How the results depend on the processing

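In BT-549 cells the 26 closed member regions were 25 with TMM factors, 21 with DESeq2, 26 with GC offsets, 24 with the replicate number as a block and 22 to 27 with a library left out. Of all BT-549 regions 14.8%, 12.2%, 18.4%, 16.4% and 12.3% to 17.0% closed in the same order, against 18.0% in the main fit. By the highest bin of each region 16 closed and 0 opened, and 0 to 1 opened with a library left out. Of all regions 10.9% closed and 9.31% opened by the highest bin, and 8.07% to 12.3% opened with a library left out. The 127 closing member bins were 40 with DESeq2, 122 with the replicate block and 73 to 117 with a library left out, and opening bins were 1 with GC offsets and 0 to 2 with a library left out. Of all bins 0.718%, 2.64% and 1.35% to 2.57% were closing in the same order, against 2.87% in the main fit. Opening bins were 1.91% of all bins with GC offsets and 1.18% to 1.74% with a library left out. In DU-145 cells, opened member regions were 1 with DESeq2, TMM factors or the highest bin and 7 with GC offsets, with or without the replicate block, and the block alone closed 7, with the OAS1 start not called (-0.72, adjusted p = 0.0607). Of all DU-145 regions 26.0%, 30.0% and 30.4% opened with DESeq2, TMM factors and the highest bin. With GC offsets 42.4% opened, or 42.0% with the block added, and the block alone closed 17.4%. DU-145 closing bins were 1 with DESeq2, and opening bins 1 with GC offsets, against 0.907% and 4.28% of all bins. With DESeq2 or TMM factors 1 shared region, the MX2 start, was lower in BT-549 vehicle cells, against 35.2% and 35.6% of all shared regions.

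Scaling moved the tables as a whole. The share of higher regions among all called ones was 68.0% in DU-145 with library sums, 54.1% with TMM factors and 50% with DESeq2, against 40.4%, 51.7% and 54.6% in BT-549, 64.1%, 51.0% and 48.3% between the vehicle lines, and 29.3%, 47.7% and 54.6% for the interaction (17.6% with GC offsets). The median over all DU-145 regions moved from 0.24 to 0.048 with TMM factors.

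Reversals were found in DU-145 cells only, among values that were not called. The upstream MX1 region was -0.22 with DESeq2, -0.17 with TMM factors, -0.30 by the highest bin and -0.09 to 0.11 with a library left out, and was called at 0.38 with GC offsets. The canonical MX1 start was -0.22, -0.17, -0.03 and -0.09 to 0.19, and was called at 0.43 with GC offsets. The OAS2 start was 0.31 with GC offsets, 0.10 by the highest bin, 0.0 with the replicate block, 0.32 with both block and GC offsets, and -0.23 to 0.17 with a library left out. The log2 ratio of the OAS3 window was 0.16 and that of the OAS2 window -0.19 with 20 kb flanks, and that of the MX1 window was -0.18 with TMM factors and -0.06 to 0.07 with a library left out. The cause of these reversals was not tested. With the replicate block 9 interactions were called, all lower in BT-549, against 26.3% of all shared regions lower and 11.2% higher. Of the single-region values under alternatives, 603 kept their direction and side of the threshold, 30 lost a call, 16 gained one and 18 changed sign. The depth of the BT-549 DOX libraries limits the calls at small regions there.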
